A study of Sus scrofa with 10 samples.

Results

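The subject is a set of 10 pig genes of androgen synthesis and of the Leydig cell hormone INSL3, chosen by gene name from the 27376 rows of a deposited count table. Every one of the 10 names is in the table, and every one passed the filter on low counts in each comparison. The study is a xenotransplantation of porcine (Sus scrofa) testis cells, and its stated question is whether germ cells influence how testicular tissue rebuilds itself. The 4 GF libraries come from tissue grown from germ cells together with testicular fibroblasts, and the 4 FO libraries from tissue grown from testicular fibroblasts alone. In both graft groups primary cells in concentrated Matrigel were put under the dorsal skin of a mouse, called SKID in the labels, and the tissue was taken after 6 months. The titles of the 2 control testis libraries hold an unexplained code, 5D, so that age and tissue cannot be told apart in comparisons with it. Nothing in the labels states whether replicates are different animals, so the p-values rest on a spread among libraries that may be technical.

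Leydig cells lie between the seminiferous tubules and make the androgens of the testis. Luteinizing hormone binds its receptor LHCGR and raises cyclic AMP, which switches on the import of cholesterol into mitochondria by STAR. There CYP11A1 cuts the side chain of cholesterol with electrons delivered by FDX1, HSD3B1 and CYP17A1 carry the product on to androstenedione, and HSD17B3 reduces that to testosterone. The same cells secrete INSL3, a peptide of the relaxin family that acts on the receptor RXFP2 and is required for descent of the testis in the mouse.

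Reads were taken at the 3' ends of polyA RNA with QuantSeq, and values are given as CPM, the counts of a gene per 1000000 in its library, after TMM scaling, a correction for differences in composition between libraries. Total counts were 2915534 to 4917325 in GF, 4033509 to 4887878 in FO, and 5844944 and 7013911 in control testis. Summed markers of Sertoli cells (11 of 12 listed genes in the table) gave 15014 to 45849 CPM in GF, 4699.7 to 8678 CPM in FO, and 4681 and 5219 CPM in control testis, with GATA1 at 0 in all GF and all FO libraries and CLDN11 at 0 in both control libraries. Such a sum is led by its most abundant genes, and single members went different ways. AMH (log2 fold change -5.21) and INHA were lower in FO than in control testis, and WT1 (2.17) was higher. In GF over FO, AMH and INHA were called higher and WT1 was called lower. Summed germ cell markers (10 of 10) gave 530 to 2809 CPM in GF, 2.54 to 9.14 CPM in FO, and 90.4 and 83.0 CPM in control testis, where PRM1 and PRM2 were at 0. Skeletal muscle markers (10 of 10) summed to 193 CPM in GF 3 and 753 CPM in FO 1, against 4.07 to 26.4 CPM in the other libraries. GF 3 and GF 4 had the lowest totals. Calls of the 10 genes that change without them, or without FO 1 and GF 3, are given with the adjusted p of that fit. Counts refer to pig genes, and whether reads came from pig or mouse was not tested. In these bulk samples fewer Leydig cells and less RNA per cell cannot be told apart.

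As a group, the 10 genes took 0.189% to 0.391% of the counts of the GF libraries, 0.0532% to 0.399% of the FO libraries, and 1.59% and 1.72% of the control testis libraries. Much of this was INSL3. Without it the shares were 0.0822% to 0.132% in GF, 0.0291% to 0.129% in FO, and 0.738% and 0.700% in control testis. With or without INSL3, the GF and FO ranges overlap, and both lie below the control libraries. Between GF and FO, edgeR's quasi-likelihood test (Benjamini-Hochberg adjusted p under 0.05 over all genes tested) called 2 of the 10 higher in GF, HSD17B3 and NR5A1, and 1 lower, HSD3B1. The same test called 30.5% of all 13782 genes, 17.6% higher and 13.0% lower, so that 3 of 10 is about the background share. Against control testis 7 of the 10 were lower in GF and 9 of the 10 were lower in FO, and none was higher in either. Summed markers of some other cell types were also lower in the grafts. Erythroid markers (4 of 5) were 5.88 to 7.40 CPM in GF, 5.00 to 34.1 CPM in FO, and 3206 and 4095 CPM in control testis, with HBM at 0 in FO. Macrophage markers (8 of 8) were 4.83 to 11.6 CPM in GF, 27.6 to 127 CPM in FO, and 278 and 357 CPM in control testis. Endothelial markers (6 of 6) were 35.6 to 68.2 CPM in GF, 115 to 194 CPM in FO, and 248 and 247 CPM in control testis. Other sums were not lower in both graft groups. Peritubular myoid and smooth muscle markers (6 of 6) were 584 to 837 CPM in GF, 210 to 346 CPM in FO, and 355 and 411 CPM in control testis. Fibroblast markers (7 of 7) were 1503 to 2693 CPM in GF, 4030 to 5987 CPM in FO, and 4270 and 4290 CPM in control testis. The part of any of these lists in the fall of the 10 genes was not tested. Over all 15877 genes tested, 25.8% were called in GF against control testis, 14.0% higher and 11.8% lower. In FO against control testis 18.7% were called, 8.12% higher and 10.6% lower. The median log2 fold change of the 10 genes was 0.22 in GF over FO, -2.37 in GF over control testis and -2.68 in FO over control testis, against -0.02, 0.03 and -0.04 over all genes tested. Groups did not overlap for 9 of the 10 genes in GF against control testis, with HSD17B3 the only one of them higher, where this held for 47.2% of all genes tested (21.9% higher and 25.3% lower), and for 9 of the 10 in FO against control testis, all lower, where it held for 58.7% (26.7% higher and 32.0% lower). Both comparisons with control testis use the same 2 control libraries.

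**Figure D1:**
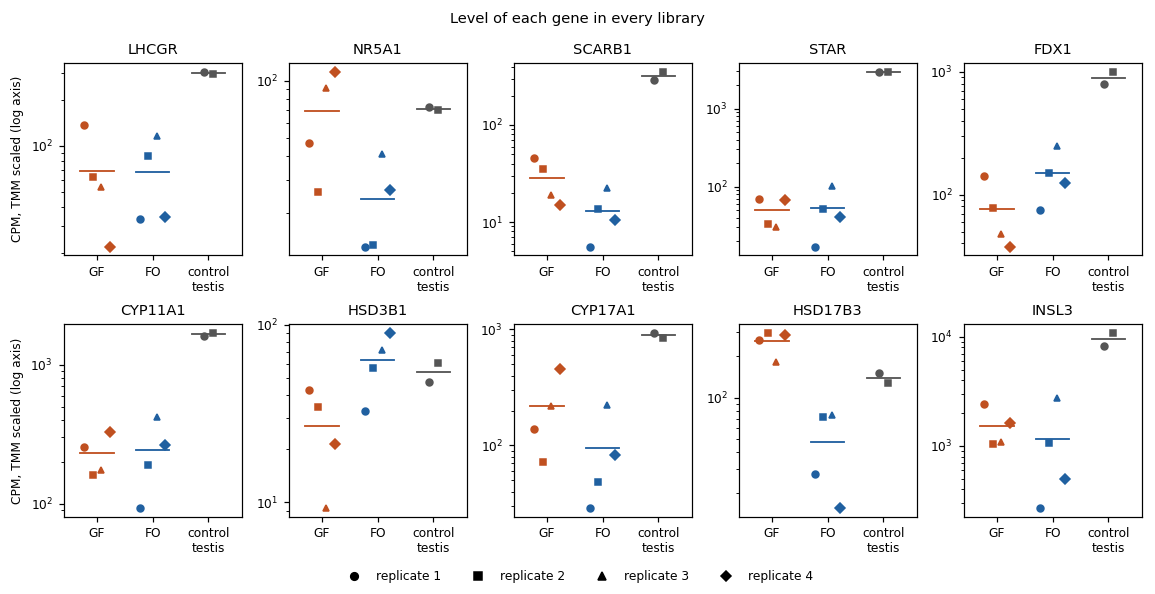
CPM with TMM scaling on a log axis for each of the 10 genes in the 4 GF, 4 FO and 2 control testis libraries; marker shape gives the replicate number and the bar the group mean. For 7 genes (LHCGR, SCARB1, STAR, FDX1, CYP11A1, CYP17A1 and INSL3) every graft library lies below both control libraries, whereas HSD17B3 is highest in GF and HSD3B1 overlaps between FO and control testis. Over all genes tested, 25.3% lay below both control libraries without overlap in GF and 32.0% in FO. The share that did so in both graft groups was not counted.

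LHCGR, the receptor for luteinizing hormone, lies on chromosome 3 from 91964415 to 92023821 (Sscrofa11.1). It had 138, 62.6, 54.2 and 22.1 CPM in GF 1 to GF 4, against 33.4, 86.3, 116 and 34.3 CPM in FO 1 to FO 4, and 303 and 294 CPM in control testis. GF spanned the whole FO range, with the highest and the lowest graft value both in GF, and every graft library lay below the controls. The log2 fold change of GF over FO was 0.03 ± 0.52 (SE) with a 95% interval of -1.09 to 1.16 (adjusted p = 0.967). LHCGR fell in GF (-2.10 ± 0.57, adjusted p = 0.0158) and in FO (-2.14 ± 0.57, adjusted p = 0.0180) relative to control testis. Both calls ended without either control library (adjusted p of 0.0847 to 0.101), the GF call ended without GF 3 and GF 4 (-1.60, adjusted p = 0.134), and the FO call ended without FO 1 (0.0569), FO 4 (0.0521) or FO 1 and GF 3 together (-1.88, adjusted p = 0.0623). Without GF 1 the fold change of GF over control testis was -2.69. The annotated LHCGR overlaps GTF2A1L, which encodes a germ cell form of a general transcription factor subunit, over 32132 bases. GTF2A1L had 16.3 ± 5.45 CPM in GF, 2.11 ± 0.869 CPM in FO and 2.10 ± 1.47 CPM in control testis (SD, n = 4, 4 and 2), and strand use in counting is not given in the sources used here; its share in the LHCGR counts was not tested.

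NR5A1, also known as steroidogenic factor 1, is a nuclear receptor that drives many genes of steroid synthesis and is active in Leydig and Sertoli cells. It lies on chromosome 1 from 265284491 to 265311547. Its values were 46.7, 25.8, 91.5 and 111 CPM in GF 1 to GF 4, against 13.4, 13.7, 41.3 and 26.7 CPM in FO 1 to FO 4, and 72.4 and 70.0 CPM in control testis. GF 3 and GF 4 stood above every other library, while GF 2 stood below FO 3 and FO 4, so that the graft groups overlapped. NR5A1 rose in GF over FO (1.53 ± 0.49, adjusted p = 0.0326), but the call ended without FO 1, FO 2, FO 4, GF 3 or GF 4 (adjusted p of 0.0667 to 0.0994) and without FO 1 and GF 3 together (1.16, adjusted p = 0.201). Without GF 3 and GF 4 the fold change was 0.57 (adjusted p = 0.351). Summed Sertoli markers were 40588 and 45849 CPM in GF 3 and GF 4, against 15014 and 17079 CPM in GF 1 and GF 2, and their part in the NR5A1 result was not tested. Single markers of that sum differed in direction in GF over FO, with AMH and INHA called higher and WT1 lower. GF and control testis did not differ past the threshold (-0.06 ± 0.53, interval -1.20 to 1.09, adjusted p = 0.951), with -0.99 (adjusted p = 0.138) without GF 3 and GF 4. FO was lower than control testis (-1.58 ± 0.52, adjusted p = 0.0489), a call that ended without either control library, FO 1, FO 2 or FO 4 (adjusted p of 0.0871 to 0.198) and without FO 1 and GF 3 (-1.34, adjusted p = 0.129). It also ended with RLE size factors (0.0562) and with a fold threshold of 1.5 (0.112), and the call in GF over FO ended with that threshold (0.0863).

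SCARB1 encodes a cell surface receptor that takes up cholesterol esters from high density lipoprotein, a source of cholesterol for steroid synthesis. It lies on chromosome 14 from 28301421 to 28393568. It had 45.2, 35.4, 19.0 and 14.9 CPM in GF 1 to GF 4, against 5.57, 13.5, 22.7 and 10.6 CPM in FO 1 to FO 4, and 289 and 353 CPM in control testis. GF 1 and GF 2 stood above all FO libraries, and GF 3 and GF 4 within their range. The fold change of GF over FO was 1.13 ± 0.46 with an interval of 0.13 to 2.13 and did not pass after adjustment (adjusted p = 0.0824), though it did without GF 4 (0.0401), without FO 3 (0.0403), in DESeq2 (0.0494), with all 10 libraries fitted (0.0450), and without GF 3 and GF 4 (1.59, adjusted p = 0.00693). SCARB1 fell relative to control testis in GF (-3.47 ± 0.46, adjusted p = 2.25e-04) and in FO (-4.60 ± 0.48, adjusted p = 4.44e-05), to 8.92% and 4.07% of the control mean.

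STAR carries cholesterol to the inner mitochondrial membrane, the step that limits acute steroid output. It lies on chromosome 15 from 48377597 to 48385398. Its values were 69.0, 33.2, 30.4 and 67.1 CPM in GF 1 to GF 4, against 17.0, 52.0, 101 and 40.7 CPM in FO 1 to FO 4, and 2904 and 2959.9 CPM in control testis. All GF values fell inside the FO range, and the lowest control value was far above the highest graft value. GF stood at 1.70% and FO at 1.80% of the control mean, which put STAR at the largest fall of the 10 genes in both comparisons with control testis, with log2 fold changes of -5.88 ± 0.54 in GF (adjusted p = 2.09e-05) and -5.79 ± 0.54 in FO (adjusted p = 2.12e-05). Between GF and FO the difference was -0.08 ± 0.46, with an interval of -1.09 to 0.93.

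CYP11A1, the side chain cleavage enzyme that makes pregnenolone, and its electron carrier FDX1 act inside the mitochondrion. CYP11A1 lies on chromosome 7 from 59172829 to 59188479 and FDX1 on chromosome 9 from 38376147 to 38399026. CYP11A1 had 256, 160.3, 175 and 329 CPM in GF 1 to GF 4, against 93.1, 189, 424 and 267 CPM in FO 1 to FO 4, and 1628 and 1699 CPM in control testis. The GF libraries again lay inside the FO range, with a difference of -0.08 ± 0.40 and an interval of -0.95 to 0.79. CYP11A1 fell relative to control testis in GF (-2.86 ± 0.44, adjusted p = 6.08e-04) and in FO (-2.77 ± 0.44, adjusted p = 8.03e-04), to 13.8% and 14.6% of the control mean. FDX1, which serves every mitochondrial steroid hydroxylase and is not restricted to Leydig cells, had 142, 77.6, 47.6 and 37.7 CPM in GF 1 to GF 4, against 75.0, 150.3, 249 and 123 CPM in FO 1 to FO 4, and 791 and 999 CPM in control testis. GF 3 and GF 4 lay below every FO library, while GF 1 and GF 2 lay within the FO range. The fold change of GF over FO was -0.97 ± 0.43 with an interval of -1.91 to -0.03 and did not pass after adjustment (adjusted p = 0.108), though it did without GF 1 (-1.46, adjusted p = 0.0153). FDX1 fell relative to control testis in GF (-3.55 ± 0.48, adjusted p = 2.80e-04) and in FO (-2.58 ± 0.47, adjusted p = 0.00229). An annotated noncoding RNA, LOC110262223, overlaps FDX1 over 1242 bases, and had 22.2 ± 7.29 CPM in GF, 30.7 ± 5.28 CPM in FO and 26.3 ± 2.85 CPM in control testis.

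HSD3B1 oxidises the 3 beta-hydroxyl group of pregnenolone and of the androgen precursors. It lies on chromosome 4 from 101565229 to 101574110, and whether reads of close relatives were divided between genes is not given in the sources used here. Its values were 43.1, 34.5, 9.32 and 21.4 CPM in GF 1 to GF 4, against 32.6, 57.2, 72.4 and 89.6 CPM in FO 1 to FO 4, and 47.5 and 61.0 CPM in control testis. FO spanned the control values, every GF library lay below the controls, and GF 1 and GF 2 overlapped FO 1. HSD3B1 fell in GF relative to FO (-1.21 ± 0.43), at the edge of the threshold (adjusted p = 0.0498). The call ended without any 1 of FO 2, FO 3, FO 4, GF 2, GF 3 and GF 4 (adjusted p of 0.0575 to 0.151), without GF 3 and GF 4 (-0.72, adjusted p = 0.110), with total counts alone as scaling (-1.05, adjusted p = 0.115), and with a fold threshold of 1.5 (0.133). HSD3B1 did not pass against control testis, at -0.99 ± 0.48 in GF (interval -2.01 to 0.04, adjusted p = 0.143) and 0.22 ± 0.49 in FO (interval -0.84 to 1.27, adjusted p = 0.809), and was the only 1 of the 10 genes not called in either of these comparisons.

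CYP17A1, the 17 alpha-hydroxylase and 17,20-lyase that commits the pathway to androgens, lies on chromosome 14 from 113805616 to 113820445. It had 138, 71.5, 217 and 454 CPM in GF 1 to GF 4, against 29.0, 48.5, 223 and 82.4 CPM in FO 1 to FO 4, and 931 and 852 CPM in control testis. GF 4 was the highest and FO 1 the lowest graft library, and FO 3 stood above 3 of the 4 GF libraries. The fold change of GF over FO was 1.21 ± 0.63 with an interval of -0.17 to 2.58 (adjusted p = 0.167). It passed without FO 3 (2.07, adjusted p = 0.0281), and was 0.09 (adjusted p = 0.949) without GF 3 and GF 4. Relative to control testis CYP17A1 fell in FO (-3.22 ± 0.69, adjusted p = 0.00600) and stood at -4.06 without FO 3. It also fell in GF (-2.02 ± 0.68, adjusted p = 0.0433). That call ended without either control library, GF 1, GF 2 or GF 3 (adjusted p of 0.0713 to 0.163). The GF call also ended in DESeq2 (0.0810), with no filter (0.142) and with a fold threshold of 1.5 (0.0817). It ended too without FO 1 and GF 3 (-2.04, adjusted p = 0.0669) and without GF 3 and GF 4 (-3.11, adjusted p = 0.0709). Without GF 4 the fold change was -2.65. The annotated CYP17A1 overlaps BORCS7, a subunit of a complex that positions lysosomes, over 11078 bases. BORCS7 had 165 ± 41.0 CPM in GF, 194 ± 28.1 CPM in FO and 231 ± 9.20 CPM in control testis, and its share in the CYP17A1 counts was not tested.

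HSD17B3, the enzyme that reduces androstenedione to testosterone, lies on chromosome 10 from 25822913 to 25866871, and overlaps no other annotated gene. In the fetal mouse testis it is made by Sertoli cells, and in the adult mouse by Leydig cells. It had 261, 295, 183 and 286 CPM in GF 1 to GF 4, against 27.6, 72.4, 74.7 and 15.7 CPM in FO 1 to FO 4, and 151 and 128 CPM in control testis. All GF libraries stood above both control libraries, and all FO libraries below them, so that the 3 groups did not overlap. HSD17B3 was the only 1 of the 10 genes whose GF and FO values did not overlap, where 36.0% of all genes tested had groups that did not (17.8% higher and 18.2% lower). It rose in GF over FO by 2.43 ± 0.44 on the log2 scale (adjusted p = 0.00196), with 256 ± 50.9 CPM in GF and 47.6 ± 30.4 CPM in FO (SD, n = 4 each). The call held in all 18 alternatives, with fold changes of 2.15 to 2.75, including without FO 1 and GF 3 (2.36) and without GF 3 and GF 4 (2.53). Summed Sertoli markers also separated GF from FO (15014 to 45849 CPM in GF, 4699.7 to 8678 CPM in FO). In GF 1 to GF 4 these sums were 15014, 17079, 40588 and 45849 CPM, where HSD17B3 had 261, 295, 183 and 286 CPM. Not all members of the sum went that way: AMH and INHA were called higher in GF than in FO, and WT1 lower. The part of Sertoli cells in the HSD17B3 result was not tested. Relative to control testis HSD17B3 was 0.88 ± 0.50 in GF (interval -0.19 to 1.94, adjusted p = 0.209) and fell in FO (-1.55 ± 0.46, adjusted p = 0.0327). The call in FO ended without either control library (0.129 and 0.190) or FO 1 (0.0933), and without GF 3 and GF 4 (0.0886), which enter that fit through its estimate of the spread. It also ended without FO 1 and GF 3 (-1.33, adjusted p = 0.0878), with a fold threshold of 1.5 (0.0838) and with only FO and control testis fitted (0.133).

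INSL3, the peptide hormone of Leydig cells, lies on chromosome 2 from 59929591 to 59931220. It had 2406, 1042, 1076 and 1607 CPM in GF 1 to GF 4, against 271, 1066, 2769 and 503 CPM in FO 1 to FO 4, and 8207 and 10774 CPM in control testis. The FO libraries differed by 10.2 times from lowest to highest and the GF libraries by 2.31 times, and all GF values fell inside the FO range. The fold change of GF over FO was 0.41 ± 0.57 with an interval of -0.83 to 1.65 (adjusted p = 0.614), and it was 1.34 (adjusted p = 0.0541) without FO 3. INSL3 fell relative to control testis in GF (-2.63 ± 0.64, adjusted p = 0.00902) and in FO (-3.04 ± 0.64, adjusted p = 0.00528). The GF call ended without control testis 2 (0.0741) and without GF 3 and GF 4 (-2.48, adjusted p = 0.173), and the FO call ended without GF 3 and GF 4 (adjusted p = 0.0553). The GF call also ended with no filter (0.0522), and the FO call with only FO and control testis fitted (0.0768). Without FO 3 the fold change of FO over control testis was -3.95.

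**Figure D2:**
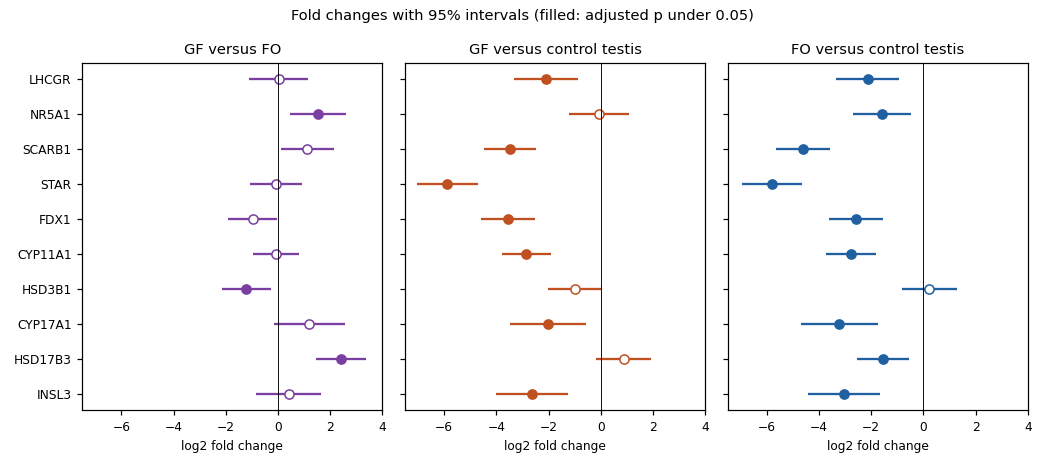
Log2 fold changes of the 10 genes with 95% intervals (lines) in GF over FO, GF over control testis and FO over control testis; filled circles have an adjusted p under 0.05. Only HSD17B3, NR5A1 and HSD3B1 are filled in GF over FO, 7 genes are filled in GF over control testis and 9 in FO over control testis, and every filled circle of the comparisons with control testis lies below 0.

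The FO libraries were ordered much alike by the 10 genes, and the GF libraries less uniformly. In FO, FO 3 held the highest value of 9 of the 10 genes and FO 1 the lowest of 9, the exceptions being HSD3B1, highest in FO 4, and HSD17B3, lowest in FO 4. FO 1 was also the lowest of all 10 libraries for 6 genes, and carried the highest skeletal muscle sum. In GF no library was uniformly high: GF 1 held the highest value of 6 genes and GF 4 of 3. LHCGR, SCARB1, FDX1 and HSD3B1 were higher in both GF 1 and GF 2 than in GF 3 and GF 4, whereas NR5A1 and CYP17A1 were higher in both GF 3 and GF 4.

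Ratios of counts within a library do not depend on the scaling between libraries, and they show whether the steps of the pathway differed by unequal amounts; they are descriptions without a test. The log2 ratio of STAR to CYP11A1 was -2.52 to -1.89 in GF, -2.71 to -1.86 in FO, and 0.80 to 0.83 in control testis, so that GF and FO overlapped and both lay below the controls. The ratio of HSD17B3 to CYP11A1 was -0.21 to 0.88 in GF, -4.09 to -1.38 in FO, and -3.73 to -3.44 in control testis, which set GF apart from both other groups. For HSD3B1 to CYP11A1 the values were -4.23 to -2.22 in GF, -2.55 to -1.51 in FO, and -5.10 to -4.80 in control testis, with every graft library above the controls. CYP17A1 to CYP11A1 gave -1.17 to 0.46 in GF, -1.96 to -0.93 in FO, and -0.996 to -0.807 in control testis, and the positive values were those of GF 3 and GF 4. INSL3 to CYP11A1 gave 2.29 to 3.23 in GF, 0.92 to 2.71 in FO, and 2.33 to 2.66 in control testis, so that all 3 groups overlapped. Against control testis the mean STAR ratio differed by -3.06 in GF and -3.09 in FO on the log2 scale, and the mean INSL3 ratio differed by 0.21 in GF and -0.58 in FO.

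**Figure D3:**
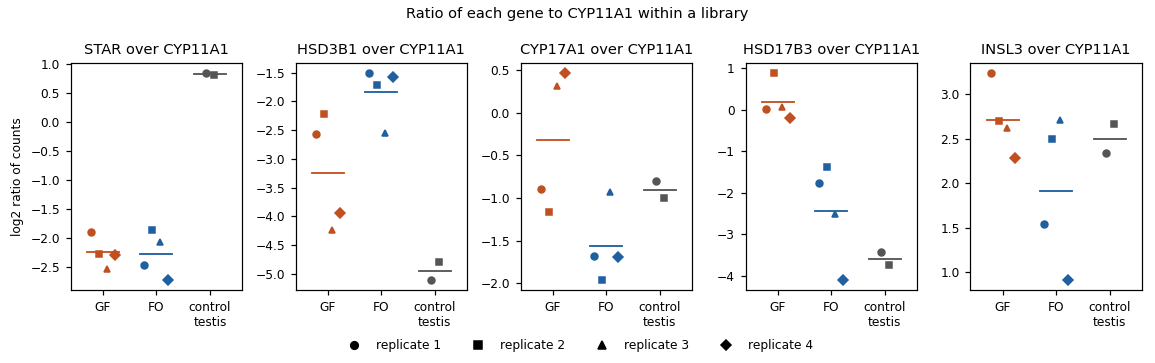
Log2 ratio of the counts of STAR, HSD3B1, CYP17A1, HSD17B3 and INSL3 to those of CYP11A1 within each library, by group; marker shape gives the replicate number and the bar the group mean. STAR over CYP11A1 is below -1.8 in all grafts and above 0.8 in control testis, and HSD17B3 over CYP11A1 is highest in GF.

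The genes whose pattern over the 10 libraries was most like that of INSL3, CYP11A1 and HSD17B3 were found by the root mean square difference of log2 CPM after each gene was centred on its mean, among 8009 other genes. For INSL3, whose own spread was 1.56 on this scale, they were AGT (0.32), the gene of angiotensinogen, CLIC5 (0.46), of an intracellular chloride channel protein, and FAM222A (0.50). For CYP11A1, with a spread of 1.31, they included FDPS (0.29), an enzyme of cholesterol synthesis, and PRKAR2B (0.37), a regulatory subunit of the cyclic AMP dependent kinase. For HSD17B3, with a spread of 1.36, they were FATE1 (0.43), TMEM158 (0.43) and PLXNC1 (0.47). AGT had 86.2, 33.2, 28.0 and 46.7 CPM in GF 1 to GF 4, against 8.08, 18.3, 57.7 and 16.5 CPM in FO 1 to FO 4, and 281 and 339.8 CPM in control testis. FATE1 had 354, 561, 303 and 509 CPM in GF 1 to GF 4, against 59.7, 155, 192 and 68.9 CPM in FO 1 to FO 4, and 266 and 289 CPM in control testis. All GF libraries were above both control libraries and all FO libraries below them for FATE1, as for HSD17B3. FATE1 was picked for its likeness to HSD17B3 in these same libraries, so the shared order is no separate result. These likenesses rest on 10 libraries that share group differences, and on 2 controls.

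**Figure D4:**
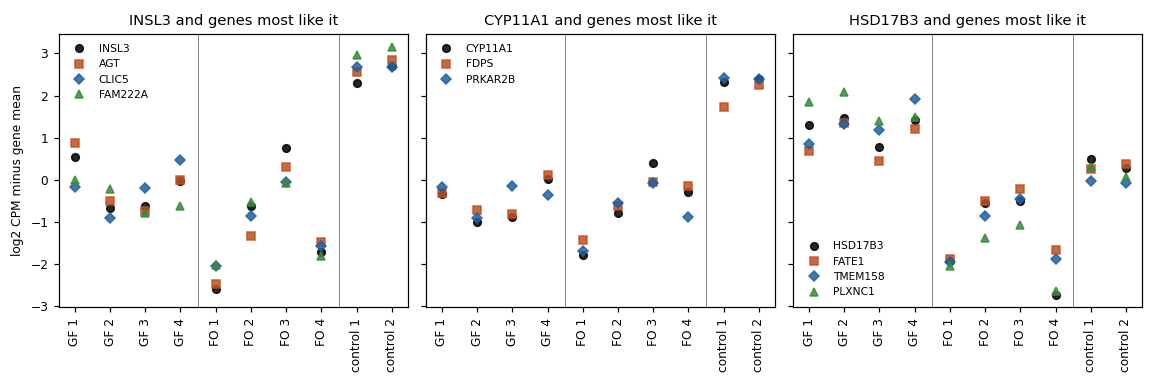
Log2 CPM minus the mean of each gene over the 10 libraries, for INSL3, CYP11A1 and HSD17B3 (black) and the genes named as most like each; vertical lines separate GF, FO and control testis. INSL3, CYP11A1 and the genes shown with them are highest in control testis and lowest in FO 1, and HSD17B3 and the genes shown with it are highest in GF.

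Other genes of the pathway were described by 8 lists. Over all genes tested, 17.6% were called higher and 13.0% lower in GF over FO. The lists were short, and none was tested against these shares. They also shared genes, and a call of a shared gene counts in both lists. CYB5A and HSD11B1 were among the steroid enzymes and cofactors and the other genes of Leydig cells. AMHR2 and PRLR were among the paracrine genes and the other genes of Leydig cells. SULT2A1 was among the steroid enzymes and cofactors and the adrenal cortex genes. In the comparison of GF with FO, of 7 tested genes of cholesterol import and mitochondrial electron transfer 2 rose and 1 fell. STARD6, a lipid transfer protein known from male germ cells of the mouse, rose (2.50 ± 0.52, adjusted p = 0.00414) to 8.11 ± 2.73 CPM in GF, against 1.41 ± 0.109 CPM in FO, and STARD3, which moves cholesterol at late endosomes, rose (1.68). Summed germ cell markers also separated GF from FO, and their part in the STARD6 result was not tested. TSPO, a cholesterol-binding protein of the outer mitochondrial membrane, fell (-1.97). Of 12 tested other steroid enzymes and cofactors 1 fell, H6PD (-0.64), which supplies NADPH inside the endoplasmic reticulum, and 11 did not pass, among them POR, the electron donor of CYP17A1, at 0.82 ± 0.31 (adjusted p = 0.0652). Of 19 tested transcription factors of steroidogenic cells 2 rose and 8 fell, with EMX2 (-2.83), NR2F2 (-2.30) and LHX9 (-2.68), factors of gonadal mesenchyme, surface epithelium or interstitial precursors, among those that fell. Of 13 tested genes of LH and cAMP signalling 3 rose and 2 fell, with ADCY9, an adenylate cyclase, higher (1.17) and GNAS, the stimulatory G protein subunit (-0.94), and PDE8B, a phosphodiesterase that breaks down cyclic AMP (-1.90), lower. Summed fibroblast markers (7 of 7) were 1503 to 2693 CPM in GF and 4030 to 5987 CPM in FO, and their part in the transcription factors that fell was not tested.

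Of 14 tested paracrine signals and receptors 3 rose and 4 fell in GF over FO, with INSR (-1.31), the insulin receptor, and IGF1 (-1.49), a growth factor of Leydig cells, lower. Of 5 tested hormone receptors and androgen-responsive genes 3 rose, among them ZBTB16 (1.69 ± 0.32, adjusted p = 0.00227), and 2 did not pass. Over all genes tested 17.6% rose. ZBTB16 is also a gene of undifferentiated spermatogonia, and its counts cannot be assigned to a cell type here. Of 10 tested other genes of Leydig cells 1 rose, INHA (2.08), the inhibin alpha chain, which Sertoli cells also make, and 4 fell, with EDNRB (-2.61), an endothelin receptor, and AMHR2 (-0.83), the receptor of anti-Müllerian hormone, among them. Of 3 tested adrenal cortex genes none was called, at -0.57 for MRAP and 1.89 for SULT2A1, and CYP21A2, the adrenal 21-hydroxylase, had 14.6 ± 6.63 CPM in GF and 14.5 ± 9.87 CPM in FO. The lowest median log2 fold change of these 8 lists was that of the transcription factors, at -0.56, against -0.02 over all genes. Calls that ended without at least 1 library were those of STARD3 (adjusted p up to 0.0649), TSPO (0.112), H6PD (0.107), PDE8B (0.0577) and AMHR2 (0.0989). POR passed without GF 2 (0.0345) and SULT2A1 without FO 3 (0.0129), without FO 3 INHA stood at 2.84, and without GF 1 EDNRB stood at -3.36. Without GF 3 and GF 4, STARD3 (0.91, adjusted p = 0.0853) and INHA (1.48, adjusted p = 0.196) lost the call, while TSPO (-1.29), PDE8B (-1.20), ZBTB16 (1.07) and EDNRB (-1.97) kept it at smaller values.

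**Figure D5:**
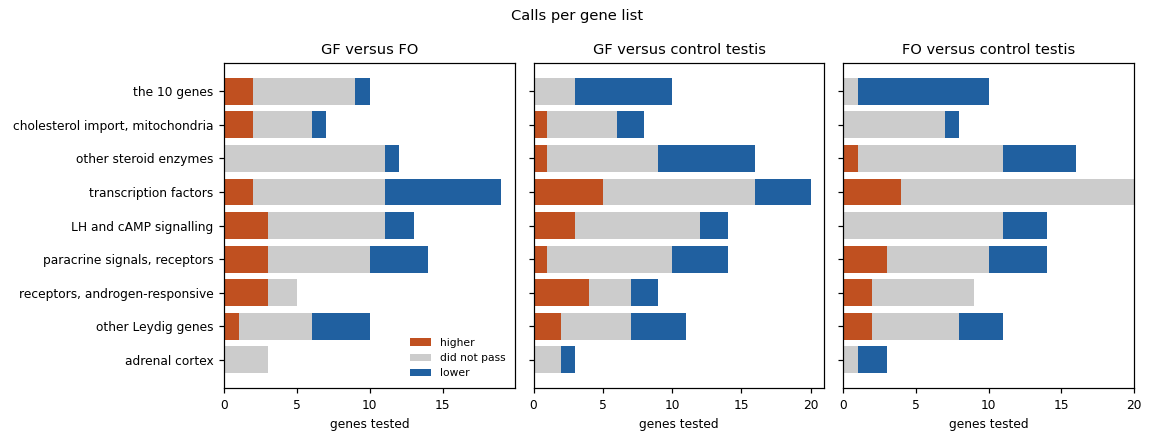
Number of tested genes in each list that were higher (orange), did not pass (grey) or were lower (blue) in GF over FO, GF over control testis and FO over control testis. The 10 genes are mostly lower in both comparisons with control testis. The adrenal cortex genes have 2 of 3 lower in FO over control testis, and the hormone receptors and androgen-responsive genes 3 of 5 higher in GF over FO. Over all genes tested, 10.6% were lower in FO over control testis and 17.6% higher in GF over FO.

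Relative to control testis, FDXR, the reductase that charges FDX1, fell in GF (-1.77 ± 0.43, adjusted p = 0.00886) and in FO (-2.73 ± 0.43, adjusted p = 7.90e-04), and CYB5A, the cytochrome that promotes the lyase reaction of CYP17A1, fell in GF (-2.44) and in FO (-2.52). CYB5A had a mean of 1060 ± 392 CPM in GF and of 1008 ± 533 CPM in FO, against 5773 ± 977 CPM in control testis. Of 16 tested other steroid enzymes and cofactors 1 rose and 7 fell in GF, and 1 rose and 5 fell in FO. Beside this and the list counts that follow, 14.0% of all genes tested rose and 11.8% fell in GF. In FO 8.12% rose and 10.6% fell. HSD17B4, a peroxisomal enzyme that also inactivates estradiol, fell in GF (-3.18) and in FO (-3.49), and POR fell in GF (-1.41) and in FO (-2.22). HSD17B2, which converts testosterone back to androstenedione, had 0 counts in every graft library and 9.80 ± 1.74 CPM in control testis, at least 52.4-fold lower in GF and at least 57.8-fold lower in FO by a floor of 3 counts over the group. Of 8 tested genes of cholesterol import and electron transfer 1 rose and 2 fell in GF, where VDAC1, a channel of the outer mitochondrial membrane, fell (-1.48) and STARD6 rose (1.97), and 1 fell in FO, where STARD4, a cytosolic sterol carrier (-1.98, adjusted p = 0.0594), did not pass.

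In LH and cAMP signalling, of 14 tested genes 3 rose and 2 fell in GF over control testis, and 3 fell in FO. PRKAR2B fell in GF (-2.79 ± 0.35, adjusted p = 1.66e-04) and in FO (-3.11 ± 0.35, adjusted p = 7.72e-05), ADCY9 rose in GF (1.79), GNAS fell in GF (-1.03), and the kinase subunits PRKACA (-1.20) and PRKAR2A (-1.19) fell in FO. Of 20 tested transcription factors 5 rose and 4 fell in GF, with EMX2 higher (1.88) and LHX9 (-1.75) and NR2F1 (-1.65) lower, and 4 rose in FO, among them EMX2 (4.71) and WT1 (2.17), which also rose in GF (1.04). Of 14 tested paracrine genes 1 rose and 4 fell in GF, with IGF1 higher (2.19) and PDGFRB (-3.03) and PDGFA (-1.87) lower, and 3 rose and 4 fell in FO, with IGF1 (3.68) and INSR (1.30) higher. PDGFRB (-2.12) and PDGFA (-1.58) fell in FO too, and AMH, the anti-Müllerian hormone of Sertoli cells, fell in GF (-2.28) and in FO (-5.21). Between the graft groups AMH was called higher in GF than in FO. A call in 1 graft group alone is no test of a difference between GF and FO.

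Of 9 tested hormone receptors and androgen-responsive genes 4 rose and 2 fell in GF over control testis, and 2 rose in FO. FKBP5, a chaperone of steroid receptors, rose in GF (1.40 ± 0.25, adjusted p = 0.00167) and in FO (1.16 ± 0.25, adjusted p = 0.00600). RXFP2, the INSL3 receptor, which was chosen after its values were seen, had 3 counts over the GF libraries, 12 over the FO libraries and 41 over the control testis libraries. Of 11 tested other genes of Leydig cells 2 rose and 4 fell in GF, and 2 rose and 3 fell in FO. PTGDS, a prostaglandin synthase, had a mean of 2719.6 ± 1515 CPM in GF and of 2400.1 ± 686 CPM in FO, against 52.7 ± 5.23 CPM in control testis, with log2 fold changes of 5.69 and 5.51. DLK1, a gene of fetal Leydig and stem cells, had a mean of 2.86 ± 3.05 CPM in GF and of 1.85 ± 2.52 CPM in FO, against 31.3 ± 6.76 CPM in control testis, and fell in both (-3.49 and -4.03). GRAMD1B, a sterol transporter, fell in GF (-1.53). HSD11B1, which reactivates glucocorticoids, rose in GF (1.28) and in FO (1.41). Of the 3 tested adrenal cortex genes MRAP fell in GF (-2.23) and in FO (-1.67), SULT2A1 fell in FO (-3.02) and was -1.14 in GF, and CYP21A2 was 0.72 in GF and 0.73 in FO, neither past the threshold.

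Whether a call held without single libraries was not examined for POR, WT1, AMH and HSD11B1 in GF over control testis. Nor was it for PDGFRB and PDGFA in FO over control testis, or for AMH and WT1 in GF over FO. Among the other listed genes named here against control testis, the calls that ended without at least 1 library in GF were those of FDXR (adjusted p up to 0.0704), VDAC1 (0.104), STARD6 (0.260), HSD17B2 (0.0548), EMX2 (0.0574), NR2F1 (0.0545), ADCY9 (0.0535), GNAS (0.0567), PDGFA (0.130), GRAMD1B (0.143), DLK1 (0.151) and MRAP (0.0601). For each of these the library was a control testis library, and for STARD6 also GF 2. In FO they were PRKACA (0.0996), PRKAR2A (0.322), INSR (0.112), FKBP5 (0.0987), DLK1 (0.116), HSD11B1 (0.263), MRAP (0.202) and SULT2A1 (0.207), again with either control library, for PRKAR2A, HSD11B1 and SULT2A1 also with some FO libraries, and for MRAP with any 1 of the 6 libraries. Without GF 3 and GF 4 the fold changes in GF were -2.42 for PDGFRB, 4.81 for PTGDS, -4.20 for DLK1 and -1.58 for MRAP, all still called. Without GF 4 the fold changes of PDGFA (-2.59) and DLK1 (-4.43) in GF moved by more than 1.5 times, as did those of AMH (-6.15), DLK1 (-5.47) and SULT2A1 (-4.84) in FO without FO 3.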

How the data were processed

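The authors deposited 1 table of raw counts per gene for the 10 libraries (polyA RNA, QuantSeq 3' libraries, per the labels' protocols). The submitters' processing notes name Sscrofa11.1 and DESeq2 1.42.0. Aligner, counter and strand setting: not given in the sources used here. Groups were taken from the sample titles, since the cell type label is the same for grafts and controls. Of 27376 rows, 26 have a date in place of a gene name.

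From the deposited counts, edgeR 4.0.16 (with limma 3.58.1, R 4.3.3) was run with filterByExpr (minimum count 10), TMM scaling and robust quasi-likelihood tests, at a Benjamini-Hochberg adjusted p of 0.05 over all genes tested. The fit of GF against FO used the 8 graft libraries. Both comparisons with control testis came from a fit of all 10, which share 1 estimate of the spread. The standard error is the log2 fold change divided by the square root of F, and intervals (95%) use the t quantile. CPM in the text use TMM over the 10 libraries. Look-alike genes used log2 CPM with a prior count of 2 and an average of at least 4. The scripts were tested on simulated data.

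The 10 genes and all lists were chosen with earlier results of these data known. Besides the 10 genes, the text names from each list and comparison up to 3 genes with the lowest p, and 3 look-alikes each of INSL3, CYP11A1 and HSD17B3; some genes the rule picks are not reported here, though list counts include them. Alternatives were DESeq2, other scalings, no filter, a replicate block, other sets of libraries, a fold threshold of 1.5, and leaving out each library. For list genes they were run in the comparisons where the rule picks the gene. Depth gives a floor of 3 counts, or 0.428 to 1.03 CPM per library, for counting error only. Gene positions are from the RefSeq table of Sscrofa11.1.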

Additional observations from a re-analysis of the deposited data

How the results depend on the processing

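For the 10 genes, 417 of 500 values under the alternatives kept direction and side of the threshold, 56 lost the call, 9 gained it and 18 changed sign. For the other named genes this was 1046, 114, 13 and 9 of 1182. Every change of sign was in a value that was not called. In GF over FO, STAR was 0.0418 with total counts, 0.0733 with the replicate block and -0.36 to 0.46 with 1 library left out. CYP11A1 was 0.0301, 0.0593 and -0.34 to 0.35 in the same settings. LHCGR was -0.0897 with the block, -0.10 without FO 1 and GF 3, and -0.54 to 0.44 with 1 library left out. CYP21A2 was 0.0101 with DESeq2, 0.00546 with RLE size factors, 0.10 with total counts, 0.11 with the block and -0.29 to 0.41 with 1 library left out, and MRAP was 0.0892 without GF 3 and GF 4. NR5A1 in GF over control testis ran from -0.39 to 0.20 and HSD3B1 in FO over control testis from -0.00285 to 0.43 with 1 library left out.

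Genes called in GF over FO numbered 4205, 2456 with the fold threshold, 2312 without FO 1 and GF 3, and 2902 to 4842 with 1 library left out. Of the 10 genes 3 were called, 1 with the fold threshold and 1 to 4 with 1 library left out. In GF over control testis 4091 were called, 2658 with the fold threshold, 2201 with only the 2 groups fitted and 1141 to 4729 with 1 library left out. Of the 10 genes 7 were called, 4 without GF 3 and GF 4 and 4 to 7 with 1 library left out. In FO over control testis 2972 were called, 1833 with the fold threshold, 6510 without GF 3 and GF 4, 6600 with only the 2 groups fitted and 796 to 2263 with 1 library left out, and of the 10 genes 9 were called, or 6 to 9. The cause was not tested. Total counts moved the median of all genes in GF over FO to 0.13 from -0.02, and the share of calls higher in GF to 69.1% from 57.5%.

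Same-numbered GF and FO libraries deviated together by correlations of 0.05 to 0.22. Differently numbered libraries were not compared, so these values cannot tell whether the numbers pair libraries. The labels do not say that they do, and the numbers were not taken as pairs. With the replicate number as a block 4335, 3282 and 3219 genes were called in the 3 comparisons, and 3, 8 and 9 of the 10 genes. HSD3B1 in GF over FO lost the call (adjusted p = 0.0637), and CYP17A1 in GF over FO (1.31, adjusted p = 0.0358) and NR5A1 in GF over control testis (-0.96, adjusted p = 0.0492) gained it. With 2 control libraries, an estimate of spread between controls rests on a single difference.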
